A study of Mus musculus with 2 samples.

Results

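Simple epithelia hold 1 main intermediate filament system, the keratins, and carry a small set of surface proteins by which epithelial cells are recognised. The 9 genes described here are the keratin genes Krt7, Krt8, Krt18, Krt19, Krt20 and Krt23, the adhesion molecule gene Epcam, and Vil1 and Ezr, which encode the microvillus proteins villin and ezrin. They were taken by name from the 37681 genes counted, and the question was which keratins the endocrine cells of the stomach share with the gland cells around them. The epithelium of the mouse stomach body (corpus), where acid is made, supplied the RNA, and the mice were C57BL/6 with an Hdc-CFP transgene. The transgene marks cells that use Hdc, which encodes the histamine-making enzyme histidine decarboxylase, with cyan fluorescence (CFP). The sorted library was made from Hdc-CFP-positive cells (sorted cells) and the depleted library from corpus epithelial cells from which the positive cells had been removed (depleted epithelium). All cells of both libraries carried the same transgene and strain background, and the sources used here give no age, treatment or number of mice. Each group held 1 library, so there is no replicate check, no p-value is given, and every comparison is of these libraries.

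Keratins are obligate partners: a type I keratin pairs with a type II keratin to build a filament. Krt7 and Krt8 are type II genes, and Krt18, Krt19, Krt20 and Krt23 are type I genes. Krt8 and Krt18 form the first pair laid down in embryonic epithelium and stay in most gut epithelium. Krt19 is typical of ducts and surface cells, Krt7 of ducts and other simple epithelia, and Krt20 of the differentiated surface of the gut. Epcam is an adhesion molecule of nearly all simple epithelia, villin bundles and severs actin in microvilli, and ezrin ties the cell membrane to actin.

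Levels are normalised CPM (counts per 1e6 gene counts), scaled by trimmed-mean (TMM) factors, with 95% intervals in brackets that cover counting error only. Counts assigned to genes came to 10736538 for sorted cells, against 50928524 for depleted epithelium. A set of 5 genes marking enterochromaffin-like (ECL) and other endocrine cells (Hdc, Slc18a2, Chga, Chgb and Cckbr) summed to 79613 CPM in sorted cells, against 242 CPM in depleted epithelium, in the direction of the labels. Most of both sums was Chga, at 61582 CPM in sorted cells, against 170 CPM in depleted epithelium, and all 5 genes were higher in sorted cells. Hdc itself, whose transgene set the sort, stood at 8422 CPM in sorted cells, against 22.0 CPM in depleted epithelium. In bulk RNA, fewer cells of a type and less RNA per cell cannot be told apart.

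The starts of Krt7, Krt8 and Krt18 are shown because these members of the chromosome 15 keratin cluster had opposite differences between the libraries. Each is 300 bases from RefSeq on GRCm38.p6, from 250 bases before to 50 after the annotated start, 5′ to 3′ on the gene's strand. Krt7 lies on the plus strand (chr15:101412153-101412452), Krt8 on the minus strand (chr15:102004293-102004592) and Krt18 on the plus strand (chr15:102027966-102028265). Capitals mark matches on either strand to any of 5 motifs. The TATA box was searched as TATAAA and the GC box of the Sp1 family as GGGCGG. An E-box of the kind bound by Snail and Zeb repressors was searched as CACCTG. The motif of the Gata factors was searched as AGATAA, and that of the Fos and Jun factors (AP-1) as TGANTCA.
Krt7: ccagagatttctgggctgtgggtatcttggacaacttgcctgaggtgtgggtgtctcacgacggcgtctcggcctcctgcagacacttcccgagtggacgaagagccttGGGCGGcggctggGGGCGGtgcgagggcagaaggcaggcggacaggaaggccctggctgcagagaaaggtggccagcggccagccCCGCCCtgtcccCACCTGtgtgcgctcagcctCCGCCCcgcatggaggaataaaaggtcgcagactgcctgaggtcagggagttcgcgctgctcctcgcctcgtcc
Krt8: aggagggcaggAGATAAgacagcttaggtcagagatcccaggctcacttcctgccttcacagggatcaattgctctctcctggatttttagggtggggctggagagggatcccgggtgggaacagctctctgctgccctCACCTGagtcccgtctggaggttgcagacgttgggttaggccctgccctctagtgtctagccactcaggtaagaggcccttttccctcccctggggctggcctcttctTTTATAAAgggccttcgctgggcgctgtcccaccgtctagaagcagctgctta
Krt18: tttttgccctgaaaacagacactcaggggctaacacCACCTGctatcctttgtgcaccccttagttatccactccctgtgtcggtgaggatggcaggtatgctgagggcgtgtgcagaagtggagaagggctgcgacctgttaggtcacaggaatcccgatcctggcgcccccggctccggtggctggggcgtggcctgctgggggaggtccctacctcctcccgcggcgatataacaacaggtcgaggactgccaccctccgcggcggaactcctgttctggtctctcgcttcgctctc

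The Krt7 window held 4 GC boxes and 1 E-box, and no match to the other motifs. The Krt8 window held 1 E-box, 1 GATA motif and TATAAA on both strands in overlapping positions at the annotated start. The Krt18 window held 1 E-box and no other match. Of the 9 genes, 8 had an entry, and Krt19 had none. The E-box letters occurred in 6 of these 8 windows, against 20.2% of all 32851 RefSeq windows, and the GC box letters in 4 of 8, against 35.7%. TATAAA occurred in 2 of 8 (Krt8 and Krt20), against 13.6%, AGATAA in 2 of 8 (Krt8 and Krt20), against 11.2%, and TGANTCA in 1 of 8 (Ezr), against 7.81%. GC content ran from 50% (Krt20) to 68% (Ezr) in the 8 windows, against a median of 52.7% over RefSeq windows. Its part in these shares was not tested. A match is a description of letters and does not show that a factor binds.

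Of the 9 genes, 2 were higher in sorted cells (Krt7 and Vil1), 6 were lower (Krt8, Krt18, Krt19, Krt20, Krt23 and Ezr) and Epcam was counted in neither direction. A gene was counted when its levels differed at least 2-fold and the interval of the fold was clear of 1. By the same rule 20.5% of 16682 genes with at least 10 counts in at least 1 library were higher in sorted cells, and 24.3% were lower. All 9 genes passed that count minimum. Their median log2 fold was -3.30, against -0.16 for all 16682 genes.

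**Figure D1:**
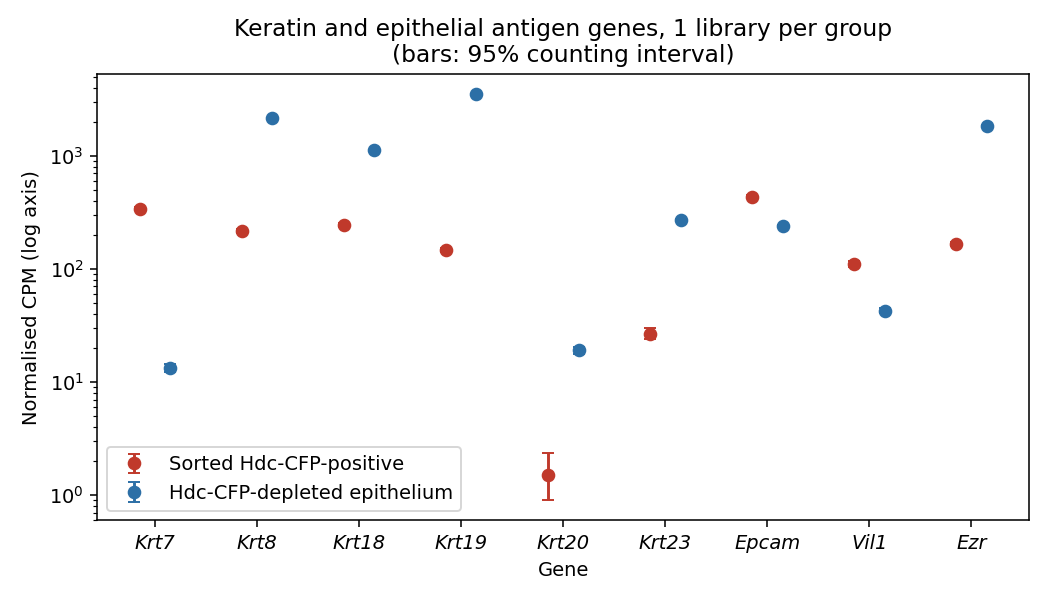
Normalised CPM (log axis) of the 9 genes in the sorted (red) and depleted (blue) library, 1 library each, with 95% counting intervals as bars. Krt7 stood at 341 CPM in sorted cells, against 13.3 CPM in depleted epithelium, while Krt19 stood at 146 and 3484 CPM.

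Among the type II keratins, Krt7 (ENSMUSG00000023039) stood at 341 CPM [331 to 352] in sorted cells, from 4319 counts, and at 13.3 CPM [12.2 to 14.4] in depleted epithelium, from 574 counts. The sorted library was therefore the higher by 25.7-fold [23.6 to 28.1], and Krt7 was the only keratin among the 9 genes that was higher there. Krt8 (ENSMUSG00000049382), the common type II keratin of simple epithelia, stood at 217 CPM [209 to 225] in sorted cells, against 2137 CPM [2124 to 2151] in depleted epithelium. It was 9.86-fold lower in sorted cells [9.49 to 10.2]. The ratio of Krt7 to Krt8 reads was 253 times as high in sorted cells as in depleted epithelium [230 to 279], a value that does not depend on the scaling between libraries. Krt8 shares 29.7% of its 50-base words with transcripts of other genes, among them the pseudogene Krt8-ps, so reads from those stretches may be missing from its counts in both libraries. For Krt7 this share was 0.916%.

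The type I partner Krt18 (ENSMUSG00000023043) stood at 245 CPM [236 to 253] in sorted cells, against 1118 CPM [1108 to 1128] in depleted epithelium, 4.57-fold lower in sorted cells [4.41 to 4.74]. Krt19 (ENSMUSG00000020911) stood at 146 CPM [140 to 153] in sorted cells, against 3484 CPM [3466 to 3501] in depleted epithelium. Its difference, 23.8-fold lower in sorted cells [22.8 to 25.0], was the largest in that direction among the 9 genes. Krt23, a type I keratin of gut and glandular epithelia, was 10.2-fold lower [9.16 to 11.4], at 26.7 CPM in sorted cells, against 273 CPM in depleted epithelium. Krt20 was rare in both libraries, with 19 counts (1.5 CPM) in sorted cells, against 821 counts (19.0 CPM) in depleted epithelium, and was 12.7-fold lower [8.05 to 21.1]. Among the 5 keratins that were lower in sorted cells, the difference was smallest for Krt18 and largest for Krt19.

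Epcam (ENSMUSG00000045394) stood at 435 CPM [424 to 447] in sorted cells, against 238 CPM [233 to 242] in depleted epithelium, 1.83-fold higher in sorted cells [1.77 to 1.89], under the 2-fold limit. Without a scaling factor the ratio was 2.54, and Epcam was then counted as higher. The same held, at 2.28, with a total that leaves out the 20 most abundant genes of each library. Vil1 (ENSMUSG00000026175) stood at 110 CPM [105 to 116] in sorted cells, against 42.7 CPM [40.8 to 44.7] in depleted epithelium, 2.58-fold higher [2.41 to 2.77]. Ezr (ENSMUSG00000052397) went the other way, at 167 CPM [160 to 174] in sorted cells, against 1845 CPM [1832 to 1857] in depleted epithelium, 11.1-fold lower [10.6 to 11.6]. The ratio of Vil1 to Ezr reads was 28.6 times as high in sorted cells [26.3 to 31.0].

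In order of the fold of sorted over depleted, the genes ran Krt7, Vil1, Epcam, Krt18, Krt8, Krt23, Ezr, Krt20 and Krt19. Each differed from the next beyond counting error, except within the run from Krt8 to Krt20. There the ratio of folds was 1.03 [0.923 to 1.16] for Krt8 over Krt23, 1.08 [0.965 to 1.22] for Krt23 over Ezr and 1.14 [0.724 to 1.81] for Ezr over Krt20.

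The level in sorted cells can also be read as a percentage of that in depleted epithelium, beside markers of the gland cells and of leukocytes. It was 4.2% for Krt19 [4.01 to 4.39], 7.91% for Krt20 [4.73 to 12.4], 9.04% for Ezr [8.65 to 9.44], 9.80% for Krt23 [8.77 to 10.9], 10.1% for Krt8 [9.76 to 10.5] and 21.9% for Krt18 [21.1 to 22.7]. For the 4 measured surface mucous markers it ran from 2.09% to 2.47%, and the summed level of the list was 3473 CPM in sorted cells, against 160442 CPM in depleted epithelium. The remaining marker, Tff1, was listed at 0 in both libraries. All 6 lower genes of this set therefore kept a larger part of their depleted level than the surface mucous markers did.

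The 5 parietal markers kept 15.2% to 29.8%, with sums of 1342 CPM in sorted cells, against 8202 CPM in depleted epithelium. The 5 chief cell markers kept 16.8% to 176%, with sums of 16020 CPM in sorted cells, against 68978 CPM in depleted epithelium. The 4 mucous neck markers kept 5.31% to 57.6%, with sums of 827 CPM in sorted cells, against 7268 CPM in depleted epithelium. Of the 6 genes, Krt18 lay within the range of each of these 3 lists, and Krt20, Ezr, Krt23 and Krt8 within that of the neck list. The chief and neck ranges are wide. Chia1, Pga5 and Pgc stood at 16.8%, 23.2% and 23.3%, but Cblif at 53.2% and Bhlha15 at 176%. The ends of the neck range were Tff2 at 5.31% and Gkn3 at 57.6%. Marker RNA of gland cells was thus counted in the sorted library, and its part in the keratin levels there was not tested. Tuft cells, a villin-bearing cell type of the same glands, had sums of 6.09 CPM in sorted cells, against 276 CPM in depleted epithelium, with Ptgs1 and Pou2f3 at 0 in sorted cells. Hdc is also used by mast cells and some other myeloid cells. Mast cell markers are not among the lists used here, so the part of mast cells was not tested. Macrophage markers summed to 7.98 CPM in sorted cells, against 2277 CPM in depleted epithelium.

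**Figure D2:**
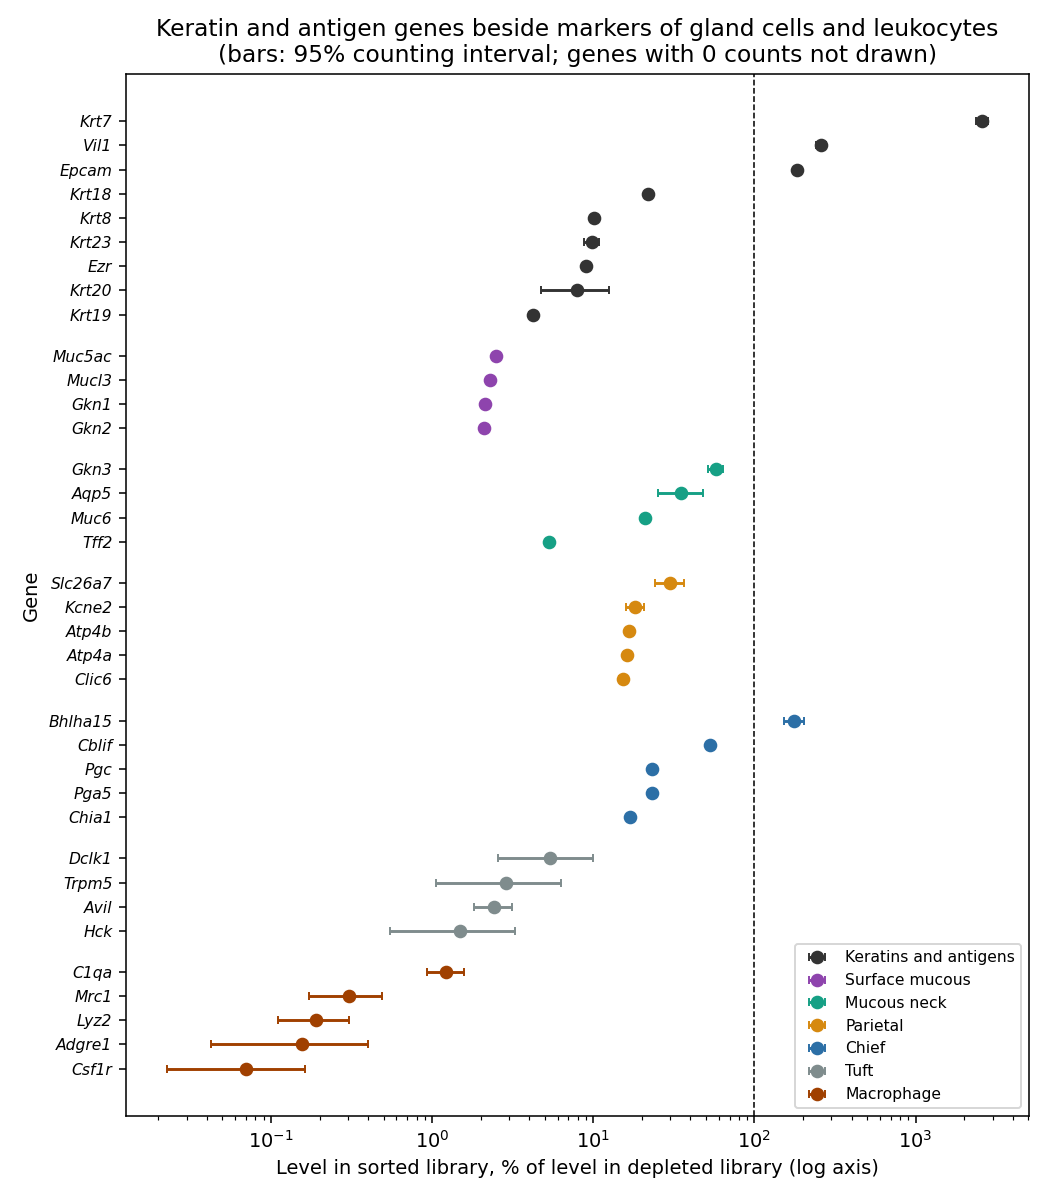
Level in sorted cells as a percentage of the level in depleted epithelium (log axis), for the 9 genes and for markers of 6 other cell types, with 95% counting intervals as bars. Krt7, Vil1 and Epcam lie to the right of the dashed line at equal levels, and Krt19, at 4.2%, is of the 9 genes the nearest to the surface mucous markers at 2.09% to 2.47%.

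Krt7 is also known from pancreatic ducts and from mesothelium. Of the duct markers, the transcription factor gene Sox9 had 29.8 CPM in sorted cells, against 61.5 CPM in depleted epithelium, or 48.4% of the depleted level. Spp1 (osteopontin) had 52.0 CPM in sorted cells, against 103 CPM in depleted epithelium, or 50.3%. The chloride channel gene Cftr had 2 counts in sorted cells, against 56 in depleted epithelium, or 12.2%, and Onecut1 had 1 and 2 counts. Their part in the Krt7 level was not tested. The mesothelial markers Msln, Upk3b, Lrrn4 and Wt1 had 0 counts in sorted cells, which allows up to 0.237 CPM each, and summed to 0.648 CPM in depleted epithelium. Acinar enzyme genes of the pancreas (Cel, Prss2, Cela2a and Ctrb1) summed to 1480 CPM in sorted cells, against 4.0 CPM in depleted epithelium, with Cpa1 at 0 counts in both, and their part in the Krt7 level was not tested.

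Levels of different genes were compared per kilobase of annotated exon. On that scale Epcam was the most abundant of the 9 genes in sorted cells, at 198 CPM per kb, followed by Krt18 at 170, Krt8 at 111, Krt19 at 78.8, Ezr at 50.7, Krt7 at 48.4, Vil1 at 31.0, Krt23 at 17.1 and Krt20 at 0.779 CPM per kb. All neighbours in this order differed beyond counting error except Ezr and Krt7 (ratio 1.05 [0.993 to 1.10]). In the depleted library the order was Krt19 at 1878, Krt8 at 1092, Krt18 at 778, Ezr at 561, Krt23 at 174, Epcam at 108, Vil1 at 12, Krt20 at 9.86 and Krt7 at 1.88 CPM per kb, and all neighbours differed. Among 20194 protein-coding genes ranked by level per kb, Epcam was rank 79 in sorted cells, against rank 328 in depleted epithelium. Krt19 was rank 256 in sorted cells, against rank 22 in depleted epithelium.

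The place of Krt7 in this order depended on the length used. Its annotated exons span 7.05 kb, over 5 annotated transcripts, while its coding sequence is 1.37 kb. Per kb of coding sequence Krt7 stood at 249 CPM in sorted cells, behind Epcam at 461 and ahead of Krt18 at 193, Krt8 at 147 and Krt19 at 121 CPM. In the depleted library Krt7 stood at 9.69 CPM per kb of coding sequence and Krt19 at 2881. Folds between libraries do not depend on the length.

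The 52 listed keratin genes found in the files, which leave out Krt88 with 2 counts in sorted cells, against 1 in depleted epithelium, took 12757 counts, or 0.119% of gene counts [0.117 to 0.121], in sorted cells and 305334 counts, or 0.600% [0.597 to 0.602], in depleted epithelium. Of the keratin counts in sorted cells, Krt7 made up 33.9% [33.0 to 34.7], Krt18 24.3% [23.5 to 25.0], Krt8 21.5% [20.8 to 22.2] and Krt19 14.5% [13.9 to 15.1]. In the depleted library Krt19 made up 49.3% [49.1 to 49.5], Krt8 30.3% [30.1 to 30.4], Krt18 15.8% and Krt7 0.188% [0.173 to 0.204]. Per kb of exon Krt7 came to 11.1% of keratin in sorted cells, against 0.0478% in depleted epithelium, and per kb of coding sequence to 32.8% and 0.177%. In sorted cells Krt7 had the largest share as counts and per kb of coding sequence. Per kb of exon it stood behind Krt18 at 39.1%, Krt8 at 25.4% and Krt19 at 18.1%. Its share was larger in sorted cells than in depleted epithelium by each of these measures.

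Balance between the partner types differed too. The ratio of summed type II to type I keratin per kb of exon was 0.589 in sorted cells, against 0.386 in depleted epithelium. Per kb of coding sequence it was 1.13 in sorted cells, against 0.369 in depleted epithelium, so the sorted library was the higher by either length. These sums include Krt7. Per kb of exon it made up 48.4 of 161 CPM of type II keratin in sorted cells, against 1.88 of 1097 CPM in depleted epithelium. The ratio of Krt8 to Krt18 per kb of exon went the other way, at 0.650 [0.618 to 0.685] in sorted cells, against 1.40 [1.39 to 1.42] in depleted epithelium. Reads missing from the shared stretches of Krt8 would lower its ratios within each library. The ratio of Krt19 to Krt18 was 0.463 [0.437 to 0.491] in sorted cells, against 2.41 [2.39 to 2.44] in depleted epithelium.

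**Figure D3:**
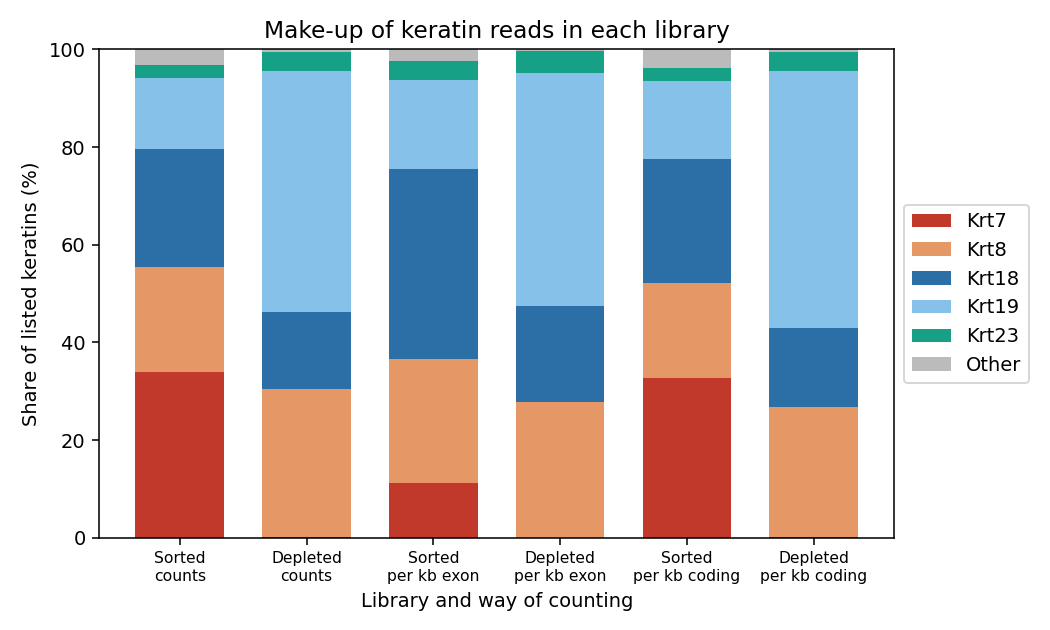
Share of each keratin (%) among the reads of the listed keratins in each library, as counts, per kb of exon and per kb of coding sequence, with the sorted library left of the depleted one in each pair. Krt7 takes 33.9% of counts in sorted cells, against 0.188% in depleted epithelium, and Krt19 14.5% and 49.3%. Krt20 is drawn within the other keratins.

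Keratin genes lie in a pair of clusters, type II on chromosome 15, with Krt18 at its end, and the other type I genes on chromosome 11. Next to Krt7 lie Krt80 and the hair keratin gene Krt87. Krt80 stood at 6.24 CPM in sorted cells, against 6.55 CPM in depleted epithelium, a ratio of 0.954 [0.733 to 1.23] that turns to 1.32 without a scaling factor. Krt87 had 13 counts in sorted cells, against 3 in depleted epithelium, a ratio of 14.8 [4.07 to 81.0]. Krt8 lies between Krt78 and Krt18. Krt78 had 0 counts in sorted cells, against 41 in depleted epithelium, and was at least 4.0-fold lower in sorted cells, with the floor of 3 counts for that library. On chromosome 11, Krt20 and Krt23 are neighbours, and both were lower in sorted cells.

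Of the other type II keratins, 5 of the 22 found were measured, with 2 higher and 2 lower in sorted cells (median log2 fold -0.07). That is 40% each way, against 20.5% higher and 24.3% lower among all 16682 genes. Krt1, of the upper epidermis, was 6.62-fold higher [3.51 to 13.0] on 31 counts in sorted cells, against 16 in depleted epithelium, and Krt79 had 3 counts in sorted cells, against 346 in depleted epithelium (ratio of depleted to sorted 33.8 [11.5 to 165]). Of the other type I keratins, 6 of 24 were measured, with 2 higher and 3 lower (median log2 fold -2.81, or -1.29 with genes at 0 counts set at the floor). Krt222, a keratin-related gene, had 182 counts (14.4 CPM) in sorted cells, against 0 in depleted epithelium, at least 207-fold higher with the floor of 3 counts. Krt10, the epidermal partner of Krt1, was 3.09-fold higher [2.24 to 4.27], at 6.01 CPM in sorted cells, against 1.94 CPM in depleted epithelium. The lower ones were Krt13, with 1 count in sorted cells, against 51 in depleted epithelium, Krt15, with 0 and 39, and Krt16, with 0 and 16. For Krt16 the bound at the floor was 1.56-fold, under 2-fold, and under the other scalings 2 to 3 of the list were lower. The basal keratin pair of stratified epithelium had few counts: Krt5 had 0 counts in sorted cells, against 2 in depleted epithelium, and Krt14 had 1 and 16. Unlike Krt1 and Krt10, neither was counted as higher in sorted cells. The 7 markers of stratified epithelium summed to 2.37 CPM in sorted cells, against 1.99 CPM in depleted epithelium, with Trp63 and Dsg3 at 0 counts in both. Lor (loricrin), of the cornified envelope, made up most of the sorted sum, with 22 counts in sorted cells, against 11 in depleted epithelium, 6.83-fold higher [3.18 to 15.6].

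**Figure D4:**
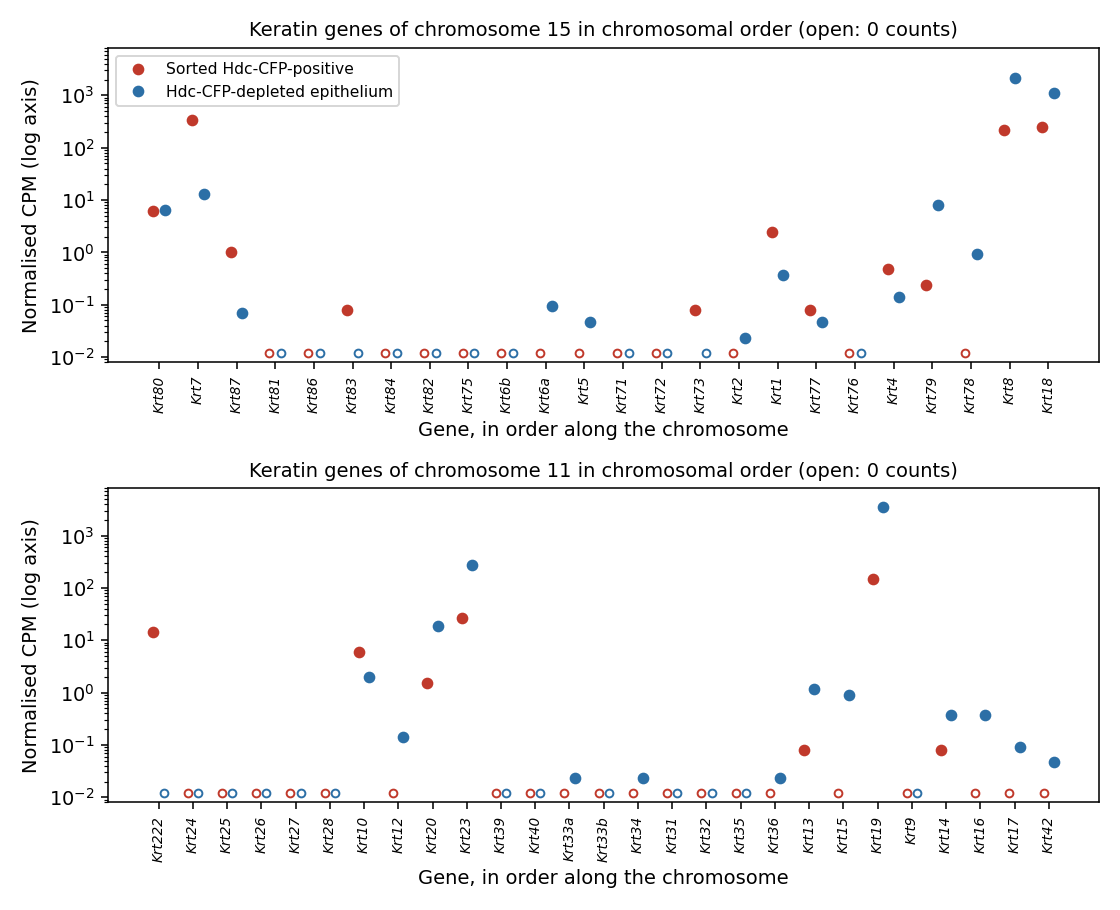
Normalised CPM (log axis) of keratin genes in their order along chromosomes 15 and 11, in the sorted (red) and depleted (blue) library, with open circles for 0 counts. Krt7 stands at 341 CPM in sorted cells, against 13.3 CPM in depleted epithelium among neighbours at or below 6.55 CPM, and most genes of both clusters are at or near 0.

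Desmosomes anchor keratin filaments at cell contacts. Of 11 measured genes of desmosomes and keratin linkers, 9 were lower and 1 was higher in sorted cells, or 81.8% and 9.09%. Among all 16682 genes 24.3% were lower and 20.5% higher. The list's median log2 fold was -2.06, or -1.64 with a gene at 0 counts set at the floor. Under the other scalings 7 to 9 of the 11 were lower. The linker gene Dsp (desmoplakin) stood at 600 CPM in sorted cells, against 1275 CPM in depleted epithelium, 2.12-fold lower [2.07 to 2.18]. Plec (plectin) was 2.32-fold lower [2.22 to 2.43]. Neither reached 2-fold without a scaling factor. Jup (plakoglobin) was 4.68-fold [4.49 to 4.89] and the cadherin gene Dsc2 16.4-fold lower [14.7 to 18.2]. Ppl (periplakin), a plakin that binds Krt8, was the higher one, at 68.7 CPM in sorted cells, against 27.9 CPM in depleted epithelium, 2.46-fold [2.25 to 2.69].

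Epcam binds claudin-7 and is cleaved by the protease matriptase. Of 10 measured relatives and partners of Epcam, 3 were higher and 4 lower in sorted cells (median log2 fold -0.40). These are 30% and 40%, against 20.5% and 24.3% of all 16682 genes. The higher ones, named after their values were seen, were the claudin genes Cldn7 (37.9-fold [29.5 to 49.4]), Cldn3 (35.9-fold [25.2 to 52.6]) and Cldn4 (27.3-fold [10.8 to 88.7]). St14, which encodes matriptase, was 2.82-fold lower [2.65 to 2.99]. Spint2, which encodes an inhibitor of matriptase, had 364 CPM in sorted cells, against 623 CPM in depleted epithelium, under the 2-fold limit. Spint1, of the same list and named after its value was seen, went the other way, at 223 CPM in sorted cells, against 124 CPM in depleted epithelium. Its ratio was 1.80 [1.72 to 1.88], and 2.50 without a scaling factor. Under the other scalings 3 to 4 of the 10 genes were higher. The surface antigen genes Tspan8 and Cd24a were 14.6-fold [13.7 to 15.7] and 6.68-fold lower [6.38 to 7.0].

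Villin belongs to the gelsolin family of actin-binding proteins. Of 7 other members measured, 2 were higher and 4 lower in sorted cells (median log2 fold -2.40). As shares these were 28.6% and 57.1%, against 20.5% and 24.3% of all 16682 genes. Svil (supervillin) was 4.22-fold higher [3.93 to 4.54], at 135 CPM in sorted cells, against 32.0 CPM in depleted epithelium, and Scin 3.42-fold higher [1.40 to 8.31] on 12 counts in each. Vill (villin-like) was 27.3-fold [23.4 to 32.1], Avil, also a tuft cell gene, 41.4-fold [31.8 to 55.0] and Gsn (gelsolin) 5.27-fold lower [5.01 to 5.54]. Flii (flightless), with 123 CPM in sorted cells, against 223 CPM in depleted epithelium, stayed under the 2-fold limit.

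Other microvillus genes were mixed, with 5 of 16 measured higher and 7 lower (median log2 fold -1.0). The shares were 31.25% and 43.75%, against 20.5% and 24.3% of all 16682 genes. The 4 genes with the highest level in either library, a choice that here rests on depleted epithelium, were lower: Pls1, an actin-bundling plastin, by 2.98-fold [2.81 to 3.17], and the myosin genes Myo1a by 40.7-fold [31.2 to 54.1], Myo1d by 4.75-fold [4.44 to 5.09] and Myo1e by 4.31-fold [3.94 to 4.74]. Genes for the complex that links microvillus tips were named after their values were seen. Ush1c stood at 10.5 CPM in sorted cells, against 0.116 CPM in depleted epithelium, 90.9-fold higher [38.0 to 284] on 133 and 5 counts. Myo7b was 43.4-fold [22.8 to 92.7] and the protocadherin gene Cdhr2 7.32-fold higher [6.36 to 8.43], while its partner Cdhr5, with 8 counts in sorted cells, against 270 in depleted epithelium, was 9.88-fold lower [4.94 to 23.1]. Anks4b, of the same complex, had 6 counts in sorted cells, against 43 in depleted epithelium, a ratio of 0.477 [0.166 to 1.12] that was not counted. Espn, an actin bundler like villin and chosen likewise, was 2.53-fold higher [2.37 to 2.71], at 117 CPM in sorted cells, against 46.0 CPM in depleted epithelium.

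Ezrin has a pair of close relatives, radixin and moesin, and Rdx went the opposite way to Ezr and Msn. Rdx stood at 121 CPM in sorted cells, against 18.9 CPM in depleted epithelium, 6.4-fold higher [5.87 to 6.97]. Msn, named after its value was seen and abundant in leukocytes, stood at 4.11 CPM in sorted cells, against 60.6 CPM in depleted epithelium, 14.7-fold lower [11.2 to 19.8]. Per kb of exon, the ratio of Rdx to Ezr was 0.515 [0.482 to 0.550] in sorted cells, against 0.00728 [0.00678 to 0.00780] in depleted epithelium. The ratio of Msn to Ezr reads in sorted cells was 0.750 times that in depleted epithelium [0.568 to 0.990]. Of 11 measured relatives and partners of ezrin, 2 were higher and 5 lower, or 18.2% and 45.5%. The share of higher genes was near the 20.5% of all 16682 genes, of which 24.3% were lower. The list's median log2 fold was -1.34, or -0.45 with a gene at 0 counts set at the floor. Under the other scalings 4 to 5 of the 11 were lower. Podxl, a membrane sialomucin that binds ezrin through a scaffold, was 38.0-fold higher [22.8 to 67.9] on 178 counts in sorted cells, against 16 in depleted epithelium. The scaffold gene Slc9a3r1 was 5.0-fold lower [4.48 to 5.60]. Slc9a3r2, of the same family and named after its value was seen, was 2.54-fold lower [2.33 to 2.78]. It did not reach 2-fold without a scaling factor. Slk, a kinase that phosphorylates ezrin, was 3.04-fold lower [2.92 to 3.17]. Nf2 (merlin), a relative of ezrin, had a ratio of 1.19 [1.12 to 1.26] and Clic4 had a ratio of 0.730 [0.685 to 0.776], which turns to 1.01 without a scaling factor.

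With only 2 libraries, likeness between genes rests on a pair of levels. The 3 protein-coding genes nearest to Krt7 in both log2 levels, among 13622 with counts in both libraries, were Cckbr (377 CPM in sorted cells, against 13.1 CPM in depleted epithelium), Cacna1a (319 and 15.2 CPM) and Nkx6-2 (290 and 12.9 CPM). Those nearest to Krt19 were Car2 (161 CPM in sorted cells, against 3311 CPM in depleted epithelium), Gsto1 (149 and 4059 CPM) and Gsta4 (104 and 2964 CPM).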

How the data were processed

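RNA-seq counts of 2 libraries were used, 1 per group. The authors deposited raw counts of reads for each Ensembl gene, made with TopHat2 2.0.07 on mm9 and HTSeq, per the submitters' processing notes. The sources used here do not give the version of HTSeq, its strand setting or its annotation, so overlapping antisense reads cannot be told apart. Overlaps with antisense genes took 5.16% of Krt8 exon bases and at most 1.38% of those of the other 8 genes. Both files held 37681 genes plus 5 summary entries without a gene, which were left out and held 34.9% of sorted and 40.4% of depleted alignments, mostly alignments that were not unique (24.2% and 34.3%).

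Gene lengths came from GENCODE M21 (GRCm38), and a gene name table gave symbols for 32642 identifiers. TMM factors from edgeR 4.0.16 over all genes were 1.18 (sorted) and 0.849 (depleted). Folds have exact Clopper-Pearson 95% intervals, and levels exact Poisson intervals. Medians of log2 folds used 0.5 added per count. A count of 0 allows 3 counts. The exact intervals and calls were tested on simulated data. The genes and lists were chosen with earlier results of these data known. From each list the 4 measured genes with the highest CPM in either library are named, and genes called in a direction where at most 2 are. Other names were chosen after their values were seen. The 2 listed genes Krt85 and Eppk1 had no identifier in the files. Alternatives were other scalings, including DESeq2 1.42.0 size factors, count minimums and gene lengths. The summed level of the duct markers is not reported here.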

Additional observations from a re-analysis of the deposited data

How the results depend on the processing

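Krt7 and Vil1 were counted as higher, and Krt8, Krt18, Krt19, Krt20, Krt23 and Ezr as lower, under all 6 scalings tried. With Epcam, the count of higher genes was 3 without a scaling factor or without the 20 most abundant genes of each library. It was 1 (Krt7) when a fold of at least 4 with an interval beyond 2 was asked. The count of lower genes stayed at 6. The median log2 fold of the 9 genes was -2.83 without a factor and -2.98 without the 20 most abundant genes of each library. It was -3.28 with DESeq2 size factors, -3.20 with upper-quartile factors and -3.19 with TMM factors over genes with at least 10 counts. The last was an alternative chosen after seeing the data. These scalings moved the median of all 16682 genes by 0.47, 0.32, 0.02, 0.11 and 0.11, so the shift is that of the scaling itself. The ratio of type II to type I keratin was 0.684 by longest transcript, 1.29 as raw counts and 1.13 by coding sequence, the last chosen after seeing the data, in sorted cells. In the depleted library it was 0.347, 0.442 and 0.369. The share of Krt7 in keratin of sorted cells was 11.1% per kb of exon and 32.8% per kb of coding sequence. No paired analysis was possible because each group holds 1 library. Depth limits Krt20, with 19 counts in sorted cells, and the other keratins with few counts.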

Other observations

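Other intermediate filament genes differed between the libraries as well. Of 10 measured, 4 were higher and 5 lower in sorted cells (median log2 fold -1.11), and under the other scalings 3 to 5 were lower. That is 40% and 50%, against 20.5% and 24.3% of all 16682 genes. Ina, which encodes the neuronal filament protein alpha-internexin, stood at 65.8 CPM in sorted cells, against 0.717 CPM in depleted epithelium, 91.7-fold higher [64.1 to 136]. Also higher, and named after their values were seen, were Sync, which encodes the muscle filament protein syncoilin (108-fold [57.9 to 227]), and the neurofilament genes Nefh (22.0-fold [10.8 to 50.5]) and Nefm (7.08-fold [4.4 to 11.7]). The nuclear lamin genes Lmna, Lmnb1 and Lmnb2 were 2.75-fold [2.59 to 2.93], 4.71-fold [4.06 to 5.50] and 2.41-fold lower [2.13 to 2.75], and Lmna and Lmnb2 did not reach 2-fold without a scaling factor. Vim (vimentin), the filament of leukocytes and stroma, also named after its value was seen, was 7.69-fold lower [5.93 to 10.2].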
